A study of Mus musculus with 23 samples.

Results

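Genes of the prostaglandin and leukotriene pathway were followed in mouse colon over 6 days of dextran sulfate sodium (DSS), a polymer that injures the colon lining when given in drinking water. The genes were chosen by name, as every probe set whose platform gene symbol is Ptgs1, Ptgs2, Ptges, Ptgis, Ptgds, Hpgd, Alox5, Alox5ap, Ltc4s or Ptger4. Of these 10 genes, 9 had a probe set, with 15 probe sets in all, out of 45037 probe sets that are not controls. The platform table used here pairs no probe set with Ptgs1, so the constitutive cyclooxygenase was not analysed here. All mice were C57BL/6J, of 12 to 14 weeks, with no transgene or deletion named in the labels. Day 0 held 5 arrays of untreated colon, and days 2, 4 and 6 held 6 arrays each, from separate cohorts on 3% DSS. Each array measured total RNA of whole colon tissue on a short oligonucleotide chip (Affymetrix Mouse Genome 430 2.0), with 1 mouse number per array in the titles. Since the tissue is a mixture, fewer cells of a type and less RNA per cell cannot be told apart.

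Prostaglandins and leukotrienes are short-lived lipid signals made from arachidonic acid, which phospholipases release from membranes. Cyclooxygenases turn it into a common intermediate, from which terminal synthases make prostaglandin E2, D2 or prostacyclin, while a lipoxygenase and its helper protein make leukotrienes. In the colon, prostaglandin E2 is known for supporting the epithelium during injury through its receptors, and leukotrienes for drawing and activating white blood cells.

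Of the 5 genes that differed from day 0 at day 6, 3 have an entry in the RefSeq promoter table of mouse build GRCm38.p6: Ptgs2, Hpgd and Ptger4. Their 250 bases before the annotated start are shown because they moved in opposite directions, Ptgs2 up and the others down. The Ptgs2 window lies at chr1:150099781-150100030 on the plus strand, the Hpgd window at chr8:56294302-56294551 on the plus strand and the Ptger4 window at chr15:5244188-5244437 on the minus strand. Capitals mark matches on either strand to a GC box (GGGCGG) or to an NF-kappaB-like pattern (GGGNNNNNCC).
Ptgs2: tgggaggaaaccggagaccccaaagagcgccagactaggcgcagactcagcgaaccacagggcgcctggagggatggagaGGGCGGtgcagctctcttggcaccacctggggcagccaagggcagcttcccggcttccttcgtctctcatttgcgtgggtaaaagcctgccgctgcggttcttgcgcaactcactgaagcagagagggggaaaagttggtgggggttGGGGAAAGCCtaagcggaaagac
Hpgd: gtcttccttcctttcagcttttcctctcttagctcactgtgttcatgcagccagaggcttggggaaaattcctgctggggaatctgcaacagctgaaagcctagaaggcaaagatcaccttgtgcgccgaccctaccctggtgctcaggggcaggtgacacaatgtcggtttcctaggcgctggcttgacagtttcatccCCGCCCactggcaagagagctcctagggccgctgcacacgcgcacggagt
Ptger4: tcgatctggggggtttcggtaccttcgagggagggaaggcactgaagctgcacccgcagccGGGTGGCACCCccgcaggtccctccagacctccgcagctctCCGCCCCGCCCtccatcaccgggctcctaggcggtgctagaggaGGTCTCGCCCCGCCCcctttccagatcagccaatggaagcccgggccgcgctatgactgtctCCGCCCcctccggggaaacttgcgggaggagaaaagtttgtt
The Ptgs2 window holds 1 GC box, 170 to 165 bases upstream of the start, and 1 NF-kappaB-like match, 23 to 14 bases upstream. Hpgd holds 1 GC box at 50 to 45 bases upstream. The G+C-rich Ptger4 window, at 66.8% G+C, holds 7 matches, several of which overlap each other. No match to the TATA box (TATAAA), the core of the cAMP response element (CGTCA) or the E-box (CACGTG) was found in these 3 windows. Bases after the annotated start were not searched. Among the 32851 windows of this length in the table, 32.7% hold a GC box, 45.8% the NF-kappaB-like pattern, 12.4% the TATA box, 17.8% the CGTCA core and 6.02% the E-box. These matches describe the letters in the windows and bear on no factor's binding.

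Values are MAS5 signals scaled by the submitters, with a trimmed mean of 500 on every array, and tests used log2(signal + 16), so that differences of dim probe sets are understated. Each gene is represented by its brightest probe set on average, and a change passed at an adjusted p of at most 0.05 over 12463 genes. A total of 4 arrays stood apart before any comparison: pancreatic genes were high on day 2 mouse 6 and day 6 mouse 1, and squamous epithelial genes were low on day 2 mouse 8 and day 4 mouse 8. The summed signal of the 4 tested pancreatic markers was 106280 on day 2 mouse 6 and 29600 on day 6 mouse 1, against 8945 to 11570 at day 0. Squamous markers summed to 659 and 885 on those day 2 and day 4 arrays, against 7523 to 13360 at day 0. Squamous sums also differed by day: they ran from 885 to 33230 at day 4 and from 22470 to 50250 at day 6. At day 6, 4 of 11 squamous markers were called as risen, where 18.1% of all genes rose. Pancreatic sums of the other day 6 arrays ran from 2596 to 8350, below every day 0 array. Skeletal muscle sums ran from 6797 to 14730 at day 0 and from 3153 to 58580 at day 6. Leaving out the 4 arrays does not remove these differences between days, whose part in the results was not tested. Each of the 10 changes called in these 9 genes also passed with these 4 arrays left out. Technical controls moved with the day: the mean log2 signal of the hybridization controls was 11.42 ± 0.06 at day 0 (SD, n = 5), 11.02 ± 0.12 at day 4 and 10.90 ± 0.19 at day 6 (SD, n = 6 each). The log2 ratio of 3' to 5' probe sets of beta-actin was 0.43 ± 0.02 at day 0, 0.61 ± 0.06 at day 4 and 0.51 ± 0.04 at day 6. Hybridization controls and the ratios of beta-actin and Gapdh all differed from day 0 at days 4 and 6 (two-sided exact permutation test, p = 0.00433 each, the smallest this design allows, adjusted p = 0.00649 over 9 tests). Their part in the results was not tested beyond fits with the hybridization controls or the beta-actin ratio as covariates, given for the 9 genes where they end a call and for the wider pathway after its counts.

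Ptgs2, Alox5ap and Hpgd changed between days 4 and 6, whereas Ptgis and Ptger4 were called from day 4 on and did not differ between days 4 and 6 beyond their spread. At day 6, 3 of the 9 tested genes had risen against day 0 (Ptgs2, Ptgis and Alox5ap), where 18.1% of all genes rose, and 2 had fallen (Hpgd and Ptger4), where 14.3% of all genes fell. At day 4, 1 had risen (Ptgis; 12.1% of all genes) and 1 had fallen (Ptger4; 4.32% of all genes). At day 2, limma called none of the 9, and it called 0.016% of all genes as risen and 0.0642% as fallen. An unadjusted limma p under 0.05 at day 2 was found for 2 of the 9, beside 1595 of all 12463 genes. Between days 4 and 6, Ptgs2 and Alox5ap rose (9.09% of all genes) and Hpgd fell (13.7%). Between days 2 and 4 limma called none of the 9, against 9.44% of all genes risen and 4.09% fallen. There, 1 of the 9 had an unadjusted p under 0.05, beside 3693 of all 12463 genes. The median log2 difference of the 9 genes was 0.10, -0.03 and 0.24 at days 2, 4 and 6 against day 0, beside 0.01, 0.06 and 0.02 over all genes. The arrays of the compared days did not overlap for 4 of the 9 genes at day 6 (16.6% of all genes), for 2 at day 4 (10.1%) and for 3 between days 4 and 6 (7.63%). They overlapped for all 9 at day 2 (2.27% of all genes did not overlap) and between days 2 and 4 (5.29%).

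**Figure D1:**
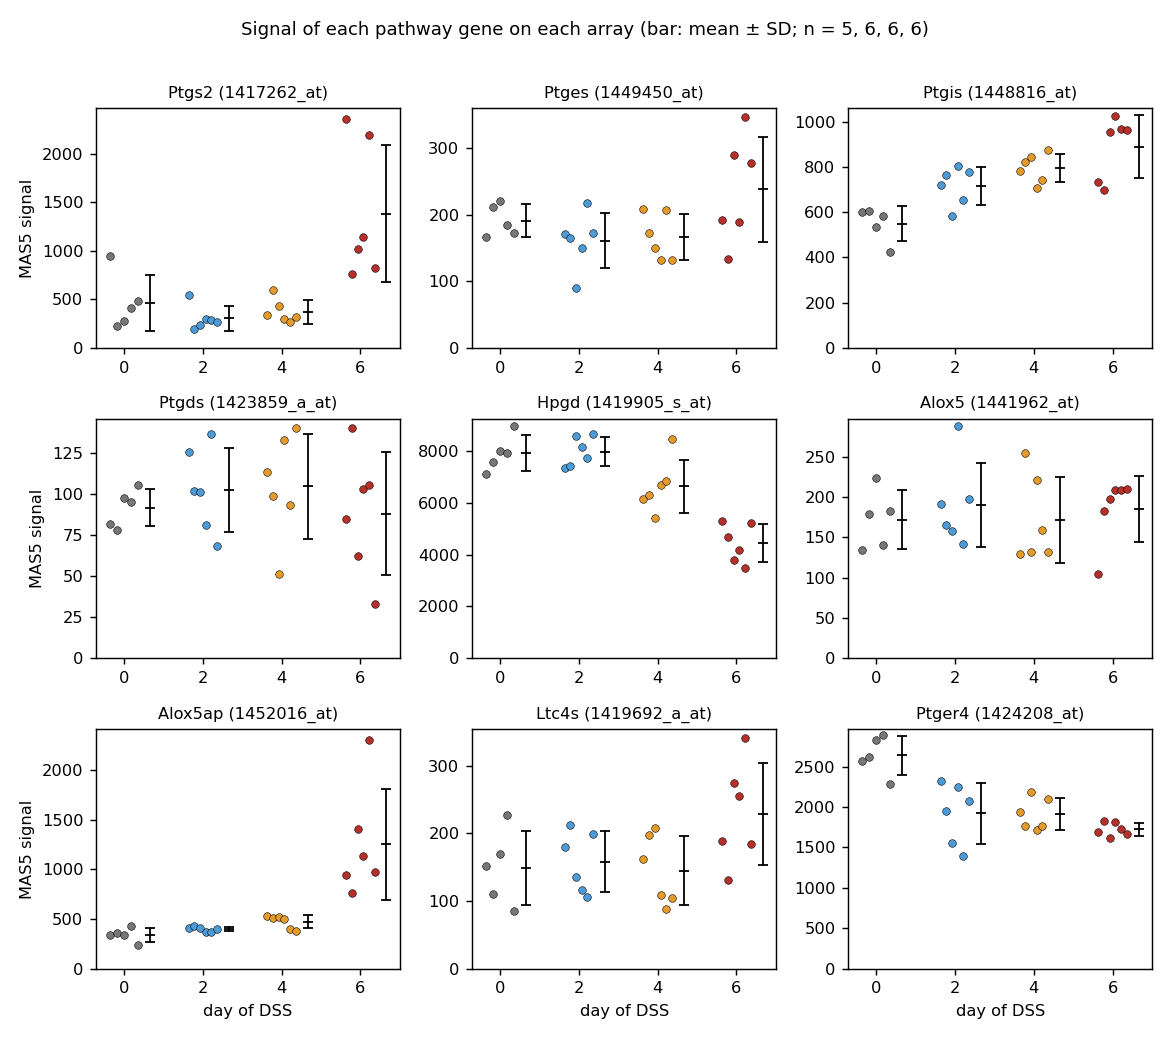
Signal of each pathway gene (vertical axis, linear, from 0) against day of DSS (horizontal axis), 1 point per array, with the mean and SD beside each day's points. At day 6, Alox5ap lies at 765 to 2306, above every earlier array, and Hpgd at 3498 to 5277, below every earlier array; Ptgs2 overlaps day 0 through day 0 mouse 1 at 944.

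Among the prostaglandin synthesis genes, Ptgs2, the inducible cyclooxygenase, rose late and by the largest amount. Its day 0 signals were 944 in mouse 1, 221 in mouse 2, 276 in mouse 3, 406 in mouse 4 and 480 in mouse 5. The lowest, median and highest signals were 192, 276 and 548 at day 2, 262, 328 and 598 at day 4, and 762, 1078 and 2357 at day 6. Day 0 mouse 1 stood well above the other untreated mice and above the lowest day 6 array, so days 0 and 6 overlapped, whereas days 4 and 6 did not. At day 6 the mean was 1381 ± 708 (SD, n = 6) against 465 ± 287 at day 0 (SD over 5 arrays). That is a log2 difference of 1.57 ± 0.33 (SE), or 2.97-fold (adjusted p = 0.000828). Leaving out day 0 mouse 1 gave 1.86, and leaving out the 4 arrays that stood apart gave 1.39. Against day 4 the difference was 1.75 ± 0.32 (adjusted p = 0.000345). Mice 1 and 21 were the highest of day 6, at 2357 and 2196, and the other day 6 arrays lay between 762 and 1137. At day 2 (log2 difference -0.49 ± 0.33, adjusted p = 0.575) and day 4 (-0.18 ± 0.33, adjusted p = 0.76) Ptgs2 did not pass. In order of mean level the days ran 2, 4, 0 and 6, and the first 3 did not differ beyond their spread.

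Ptgis, prostacyclin synthase, was called at day 4 as well as at day 6. Day 0 signals were 598, 607, 535, 584 and 422 in mice 1 to 5. The lowest, median and highest were 584, 742 and 803 at day 2, 705, 802 and 872 at day 4, and 697, 958 and 1025 at day 6. All arrays of days 4 and 6 lay above all untreated arrays, and day 2 overlapped day 0 only in its lower end. The log2 difference from day 0 was 0.38 ± 0.11 at day 2 (adjusted p = 0.132), 0.53 ± 0.11 at day 4 (adjusted p = 0.00262) and 0.68 ± 0.11 at day 6 (adjusted p = 6.29e-05). Neighbouring days from 2 to 6 did not differ beyond their spread, at 0.15 ± 0.11 for each step (adjusted p = 0.359 and 0.336). The day 4 call was lost with the beta-actin ratio as a covariate (0.14, adjusted p = 0.719) and with the hybridization controls as one (0.52, adjusted p = 0.124). The day 6 call passed with each of them.

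Ptges, the inducible terminal synthase of prostaglandin E2, has 3 probe sets. On the brightest, day 0 signals were 167, 212, 221, 184 and 172 in mice 1 to 5, and day 6 signals ran from 133 through a median of 234 to 347. The mean was 191 ± 24.2 at day 0 (SD over 5 arrays) and 238 ± 79.4 at day 6 (SD over 6 arrays), and the days overlapped (log2 difference 0.24 ± 0.21, adjusted p = 0.403). The difference between days 6 and 4 did not pass (0.43 ± 0.20, adjusted p = 0.118). Of 23 fits with 1 array left out, it passed in 1, without day 6 mouse 3, the lowest day 6 array (0.57, adjusted p = 0.0268). Ptgds, a prostaglandin D2 synthase, had day means of 91.8, 102, 105 and 88.1 on its kept probe set, and no day differed from day 0 (largest log2 difference -0.13 ± 0.25, adjusted p = 0.723). Its other probe set, with signals of 4.65 to 68.9, did not pass the filter on dim probe sets. Both genes were dim: the median signal of an array lay between 97.3 and 121.

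Hpgd, the dehydrogenase that begins the breakdown of prostaglandin E2, fell. Its day 0 signals were 7093, 7557, 8007, 7902 and 8959 in mice 1 to 5. The lowest, median and highest were 7338, 7934 and 8647 at day 2, 5425, 6476 and 8447 at day 4, and 3498, 4422 and 5277 at day 6. Every day 6 array was below every array of the earlier days. The mean fell from 7904 ± 690 at day 0 (SD over 5 arrays) to 4436 ± 741 at day 6 (SD over 6 arrays), a log2 difference of -0.84 ± 0.10 or 0.557-fold (adjusted p = 2.02e-06). Day 6 was also below day 4, by -0.58 ± 0.10 (adjusted p = 0.000187). Day 2 and day 0 did not differ beyond their spread (0.01 ± 0.10, adjusted p = 0.972). Day 4 lay between, at -0.26 ± 0.10 from day 0 (adjusted p = 0.0896) and -0.27 ± 0.10 from day 2 (adjusted p = 0.0677). Mouse 8, one of the arrays with low squamous genes, was the highest of day 4 at 8447. Without it both day 4 differences passed (-0.33, adjusted p = 0.0228 against day 0; -0.35, adjusted p = 0.0195 against day 2). In mean level the days ran 6, 4, 0 and 2. This probe set carries the suffix that the platform gives to probe sets matching more than 1 transcript, so its signal may include a related sequence.

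Among the leukotriene synthesis genes, Alox5ap rose at day 6, and Alox5 and Ltc4s did not pass. Alox5ap encodes the membrane protein that presents arachidonic acid to the lipoxygenase and is known from white blood cells. Its day 0 signals were 335, 356, 344, 429 and 238 in mice 1 to 5. The lowest, median and highest were 373, 402 and 431 at day 2, 379, 504 and 532 at day 4, and 765, 1053 and 2306 at day 6. All day 6 arrays were above all others, and mouse 21 was the highest. The mean rose from 341 ± 68.1 at day 0 (SD over 5 arrays) to 1254 ± 559 at day 6 (SD over 6 arrays), a log2 difference of 1.76 ± 0.19 or 3.38-fold (adjusted p = 3.25e-07). The rise from day 4 was 1.29 ± 0.18 (adjusted p = 2.55e-05). The earlier days lay in the order 0, 2 and 4, and neighbours among them did not differ beyond their spread (0.24 ± 0.19, adjusted p = 0.635; 0.23 ± 0.18, adjusted p = 0.41). The difference of day 4 from day 0, 0.47 ± 0.19 (adjusted p = 0.0914), passed without day 6 mouse 21 (adjusted p = 0.0211).

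Alox5, the lipoxygenase itself, showed no day that passed. Day 0 signals were 134, 179, 224, 140 and 183 in mice 1 to 5, and those of day 6 ran from 105 through a median of 203 to 210. The day means were 172, 190, 171 and 186, and the log2 difference at day 6 was 0.09 ± 0.20 (adjusted p = 0.771). Ltc4s, which joins glutathione to leukotriene A4, had day 0 signals of 152, 110, 170, 226 and 84.6, and day 6 signals from 132 through 222 to 341. Its day 6 mean of 229 ± 75.3 (SD, n = 6) was 0.58 ± 0.26 above day 0 on the log2 scale and missed the threshold (adjusted p = 0.0896). The call was gained without day 0 mouse 4, the highest untreated array (adjusted p = 0.0394), or without day 6 mouse 3, the lowest day 6 array (adjusted p = 0.0365). Days 0, 2 and 4 of Ltc4s had means of 149, 158 and 145 and did not differ beyond their spread.

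Ptger4, the prostaglandin E2 receptor EP4, fell at days 4 and 6. On the brighter of its probe sets, day 0 signals were 2571, 2621, 2829, 2888 and 2289 in mice 1 to 5. The lowest, median and highest were 1396, 2011 and 2317 at day 2, 1713, 1852 and 2183 at day 4, and 1622, 1712 and 1823 at day 6. All arrays of days 4 and 6 were below all untreated arrays, while day 2 overlapped day 0 through day 2 mouse 1 at 2317. The log2 difference from day 0 was -0.47 ± 0.11 at day 2 (adjusted p = 0.0665), -0.47 ± 0.11 at day 4 (adjusted p = 0.00468) and -0.61 ± 0.11 at day 6 (adjusted p = 0.00012). Days 2, 4 and 6 did not differ beyond their spread (0.01 ± 0.10, adjusted p = 0.97, and -0.14 ± 0.10, adjusted p = 0.339). With the hybridization controls as a covariate the calls at day 4 (-0.37, adjusted p = 0.245) and day 6 (-0.48, adjusted p = 0.131) were lost. With the beta-actin ratio as a covariate the day 4 value was larger, at -0.79 (adjusted p = 0.0383). The day 2 difference passed without day 2 mouse 1 (adjusted p = 0.0437).

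**Figure D2:**
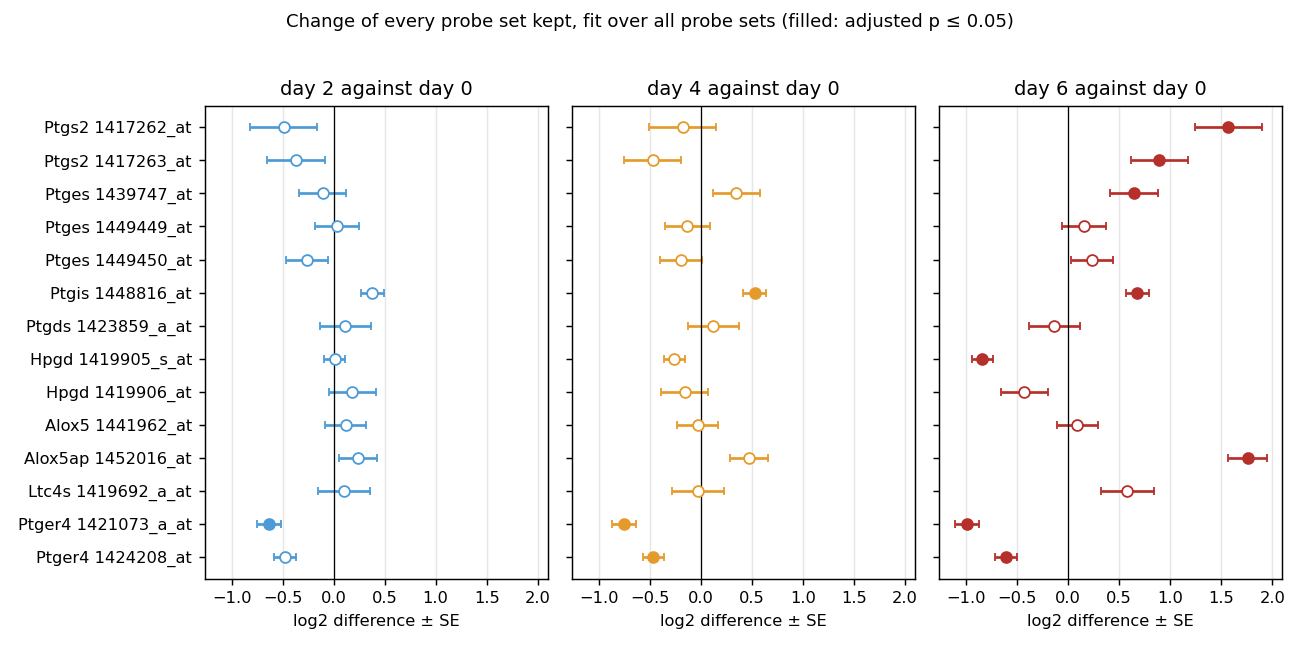
Log2 difference from day 0 with its SE (horizontal axis) for the 14 probe sets kept, in a fit over all 24627 kept probe sets, in 1 panel per day; filled points passed at an adjusted p of 0.05. Only a Ptger4 probe set is filled at day 2, and at day 6 the filled points are those of Ptgs2, 1 of Ptges, Ptgis, 1 of Hpgd, Alox5ap and both of Ptger4.

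Genes with more than 1 probe set were set against each other in a fit over all 24627 kept probe sets. There, 18.7% of probe sets passed at day 4, 29.5% at day 6, 0.122% at day 2, 13.1% between days 2 and 4 and 18.2% between days 4 and 6. The dimmer Ptger4 probe set gave the larger fall. It was 476 ± 26.0 at day 0 (SD over 5 arrays), 304 ± 51.7 at day 2, 277 ± 19.8 at day 4 and 233 ± 39.2 at day 6 (SD, n = 6 each), and its arrays of days 2, 4 and 6 were all below those of day 0. It had already passed at day 2 (-0.63 ± 0.12, adjusted p = 0.0231), and reached -0.99 ± 0.12 at day 6 (adjusted p = 1.13e-06). The dimmer Ptgs2 probe set rose too, by 0.89 ± 0.28 at day 6 (adjusted p = 0.0182), and its size was smaller than the 1.57 of the brighter one. Of the 3 Ptges probe sets, 1 that is not the brightest rose at day 6, by 0.65 ± 0.23 (adjusted p = 0.038), while the others did not pass (0.24, adjusted p = 0.412, and 0.16, adjusted p = 0.625). The Ptges probe sets thus disagreed on the call, with the same sign at day 6. The dim second probe set of Hpgd, at 43.1 to 106 on day 6, did not pass (-0.43 ± 0.23, adjusted p = 0.166).

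For the 2 genes that changed at least 2-fold against day 0 (a log2 difference of at least 1), the genes with the most similar course were found as the smallest root mean square difference of log2 changes over the 18 DSS arrays. For Alox5ap these were Tyrobp at 0.20, Fcgr1 at 0.24 and Sting1 at 0.25, against a median of 1.12 over all genes. Tyrobp, a signalling adaptor of myeloid cells, changed by 0.29, 0.60 and 1.82 at days 2, 4 and 6. Ptgs2 had no neighbour as close: Cd300lf at 0.53, Mmp9 at 0.53 and Cebpd at 0.54, against a median of 1.11. Mmp9, a matrix protease, changed by -0.04, -0.27 and 1.53 at days 2, 4 and 6. These distances are descriptions over arrays that share the day of treatment.

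The wider pathway was read from a list of 69 other genes of arachidonic acid release, synthesis, transport, breakdown and reception, of which 61 had a probe set and 46 passed the filter on dim probe sets. At day 6, 12 of the 46 rose and 9 fell, with a median log2 difference of 0.09 beside 0.02 over all genes. Of the 12, 2 (Fpr2 and Ptgir) would not have passed the filter on dim probe sets without their day 6 arrays. At day 4, 4 rose and 2 fell, and at day 2 limma called none. These shares are to be read against the 18.1% and 14.3% of all genes that rose and fell at day 6. At day 4 the shares of all genes were 12.1% and 4.32%, and at day 2 they were 0.016% and 0.0642%. The counts by role below are to be read against the same shares. An unadjusted limma p under 0.05 at day 2 was found for 4 of the 46, beside 1595 of all 12463 genes. The calls on this list changed with the technical controls as covariates, in fits added after the data were seen. Hybridization controls and the beta-actin ratio lay apart from day 0 on every array of days 4 and 6. The hybridization controls ran from 11.35 to 11.51 at day 0 and from 10.68 to 11.14 at day 6. A lost call thus does not tell a technical effect from lost precision. Sizes of the calls lost with the hybridization controls at day 6 varied. Akr1c18 had 1.31 (1.04 without them) and Cbr3 -0.08 (-0.62 without them). With the hybridization controls as a covariate, 4 of the 21 calls at day 6 passed, Acsl4, Cbr1 and Fpr2 among the genes named here, and 0 of the 6 at day 4. With the beta-actin ratio as a covariate, 19 of the 21 passed at day 6 and 0 of the 6 at day 4. Without the 4 arrays that stood apart, all 21 passed at day 6 and 5 of 6 at day 4. No called value changed sign in these fits.

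Among 19 genes of phospholipase A2 and arachidonate release, 6 rose and 3 fell at day 6. Pla2g4e, a cytosolic phospholipase family member, went from 70.6 ± 32.0 at day 0 (SD over 5 arrays) to 206 ± 66.9 (SD, n = 6), a log2 difference of 1.40 ± 0.30 (adjusted p = 0.000965). Acsl4, which loads arachidonic acid onto coenzyme A, rose from 779 to 1634 (1.02 ± 0.16, adjusted p = 3.2e-05), and the arrays of the days did not overlap. Pla2g7, which degrades platelet-activating factor, rose by 0.91 ± 0.21 (adjusted p = 0.00181). Pla2g2a, a secreted phospholipase whose gene carries an inactivating change in C57BL/6 mice, rose by 0.79 ± 0.24 (adjusted p = 0.013). The 3 that fell, named after their values were seen, were Pla2g10, a secreted phospholipase, from 5143 to 3723 with no overlap (-0.48 ± 0.10, adjusted p = 0.000959), Pla2g3 (-0.62, adjusted p = 0.0145) and Faah (-0.41, adjusted p = 0.0426). Among 5 other prostanoid synthases, 1 fell at day 6: Cbr1, a carbonyl reductase that can turn prostaglandin E2 into F2-alpha, from 6548 ± 304 (SD over 5 arrays) to 3861 ± 902 (SD, n = 6) with no overlap (-0.79 ± 0.11, adjusted p = 7.56e-06). It was already lower at day 4 (-0.38 ± 0.11, adjusted p = 0.0195).

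Of 6 genes of prostaglandin uptake, export and inactivation other than Hpgd, 1 rose and 2 fell at day 6. Ptgr2, a reductase that acts on the product of Hpgd, fell by 0.31 ± 0.09 on the log2 scale (adjusted p = 0.0083), from 1421 to 1143. Cbr3, a carbonyl reductase, fell by 0.62 ± 0.17 (adjusted p = 0.00607), and with the hybridization controls as a covariate its difference was -0.08 (adjusted p = 0.909). Akr1c18, an aldo-keto reductase known from progesterone breakdown, rose from 140 to 322 (1.04 ± 0.30, adjusted p = 0.0094). For Ptgr2, Cbr3 and Akr1c18 the arrays of days 0 and 6 overlapped.

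Of the other prostanoid receptors, 4 of 8 listed were tested, and at day 6 limma called 2 as risen and none as fallen. Ptger2, the prostaglandin E2 receptor EP2, was 239 ± 42.3 at day 0 (SD over 5 arrays), 231 ± 13.3 at day 2, 365 ± 43.8 at day 4 and 472 ± 118 at day 6 (SD, n = 6 each). Its log2 difference was 0.59 ± 0.14 at day 4 (adjusted p = 0.00626) and 0.91 ± 0.14 at day 6 (adjusted p = 2.69e-05), and the arrays of days 0 and 6 did not overlap. Ptgir, the prostacyclin receptor, was dim, at 52.2 ± 9.44 at day 0 (SD over 5 arrays) and 129 ± 34.8 at day 6 (SD over 6 arrays), and rose by 1.06 ± 0.20 (adjusted p = 0.000263); it would not have passed the filter without its day 6 arrays. It also passed at day 4 (0.59 ± 0.20, adjusted p = 0.0449), though not without the 4 arrays that stood apart (0.52, adjusted p = 0.072).

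On the leukotriene side, 2 of 8 genes of synthesis, export and inactivation rose at day 6 and 3 fell. Cyp4f18, an oxidase that degrades leukotriene B4, rose from 89.7 ± 31.2 (SD over 5 arrays) to 309 ± 152 (SD, n = 6), a log2 difference of 1.55 ± 0.31 (adjusted p = 0.000396). Ggt5, which cleaves leukotriene C4 to D4, rose by 1.38 ± 0.32 (adjusted p = 0.0018). The Ggt5 probe set carries the platform's suffix for probes that may also match other sequences, so its signal may include them. Dpep1, a dipeptidase that takes D4 to E4, fell by 0.63 ± 0.16 (adjusted p = 0.00424), from 5691 to 3797. Abcc1, an exporter of leukotriene C4, passed at day 4 (0.34 ± 0.08, adjusted p = 0.00657) and not at day 6 (0.17 ± 0.08, adjusted p = 0.11). Of the leukotriene and lipoxin receptors, 2 of 7 listed were tested. Fpr2, a formyl peptide and lipoxin receptor of myeloid cells, rose from 35.8 ± 14.8 (SD, n = 5), where it was dim, to 347 ± 177 (SD, n = 6), a log2 difference of 2.68 ± 0.37 (adjusted p = 7.5e-06). Before day 6 no array had Fpr2 above its own median, so it was tested only through the group in which it was high. The other, Cysltr1, did not pass. Neither of the 2 tested lipoxygenases of the list passed.

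**Figure D3:**
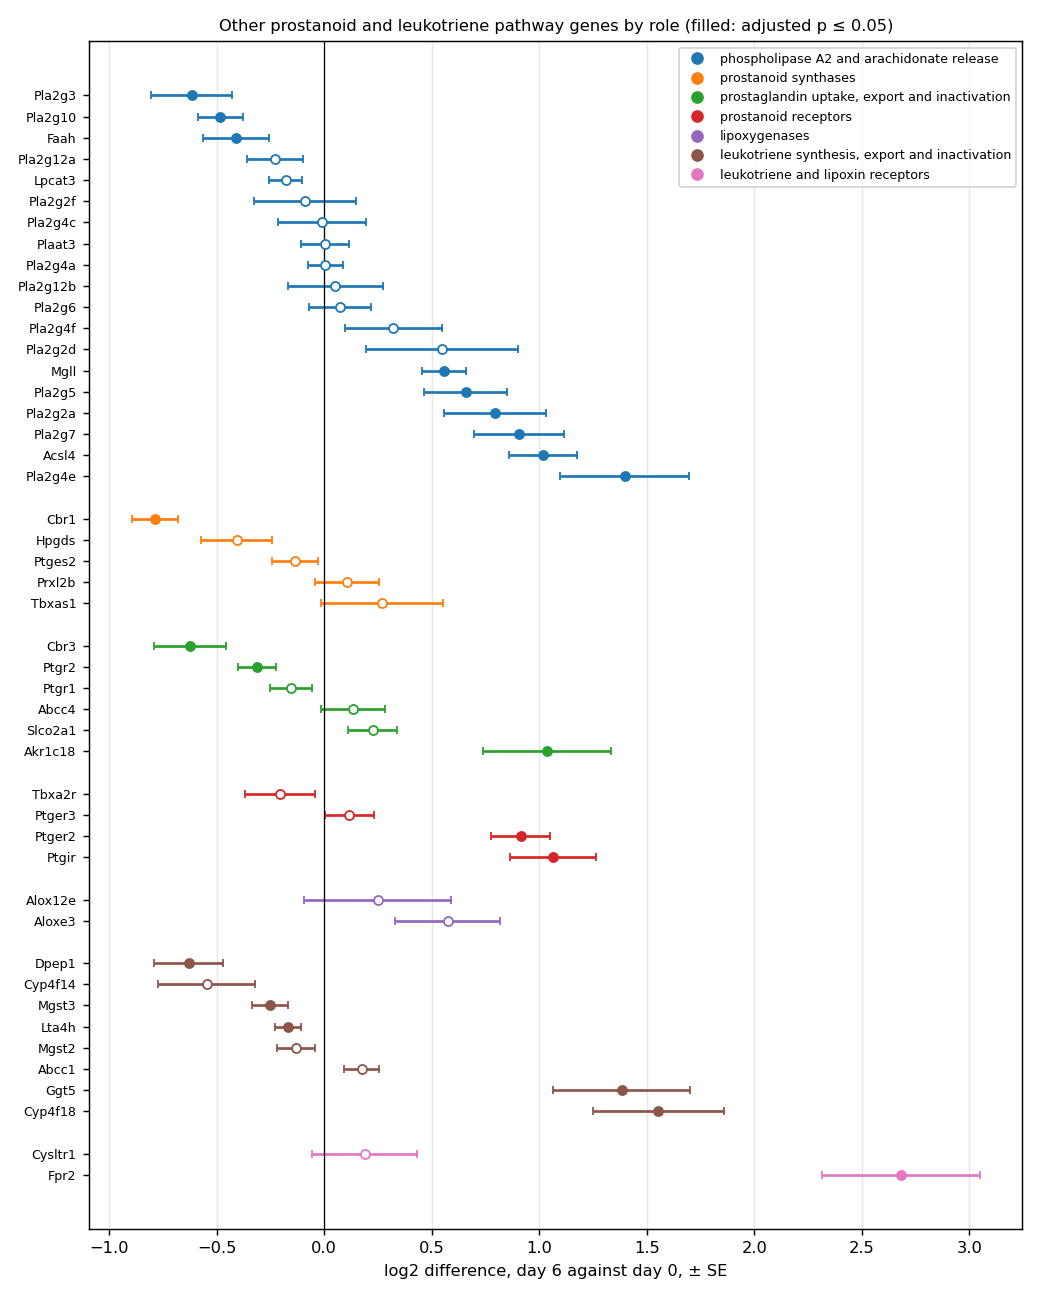
Log2 difference of day 6 from day 0 with its SE (horizontal axis) for the 46 other pathway genes that were tested, ordered within their role (colour); filled points passed at an adjusted p of 0.05. Fpr2, which passed the filter on dim probe sets only through its day 6 arrays, lies furthest to the right at 2.68, and Cbr1 furthest to the left at -0.79.

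Cell type markers moved over the same days, and their part in the pathway results was not tested. Counts of called markers are to be read against the shares of all genes. These were 18.1% risen and 14.3% fallen at day 6, and 12.1% risen and 4.32% fallen at day 4. Of the monocyte and macrophage markers, all 16 tested (of 17 listed) rose at day 6, 5 of them already at day 4. Among these 16 is Itgam, also on the neutrophil list, which would not have passed the filter on dim probe sets without its day 6 arrays. The summed signal of the 16 ran from 12800 to 18310 at day 0, from 17490 to 27440 at day 4 and from 27700 to 56410 at day 6. Mouse 21 had the highest sum of day 6 and the highest Alox5ap, and mouse 3 the lowest of both. Of the neutrophil markers, 6 of 8 tested (of 16 listed) rose at day 6 and 1 fell, and their sum ran from 3657 to 4654 at day 0 and from 4426 to 15280 at day 6. The gene that fell, Cd177, made up most of the day 0 sum, with a mean of 3483 at day 0 and 1826 at day 6. S100a8 went from at most 193.5 at day 0 to at least 988.5 at day 6, and S100a9 from at most 139 to at least 729. Of the risen markers, Csf3r, Itgam and Trem1 would not have passed the filter on dim probe sets without their day 6 arrays. The neutrophil markers Camp, Cxcr2, Mmp8, Ngp and Stfa2l1 did not pass the filter, with day 6 means of 47.4 to 133. The neutrophil marker Mmp9 and the macrophage markers Tyrobp and Fcgr1 are also the genes named above as most similar to Ptgs2 and Alox5ap. Within day 6, mouse 3 had the lowest neutrophil sum (4426) and the lowest Ptgs2 signal (762). The order differed elsewhere: mouse 1, with the highest Ptgs2 at 2357, had a sum of 11080, while mouse 4 had a sum of 13804 and Ptgs2 at 1019, and mouse 29 a sum of 11573 and Ptgs2 at 818.

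Beside Ptgis, 11 of 13 endothelial markers rose at day 4 (12.1% of all genes rose) and 9 at day 6 (18.1%). Their sums were 3906 to 4641 at day 0, 5532 to 9124 at day 4 and 5652 to 9897 at day 6. Of 10 smooth muscle markers, 7 rose at day 4 and 1 at day 6 (median log2 difference -0.09). From day 4 to day 6, 7 fell (median -0.43), where 13.7% of all genes fell. Fibroblast and matrix markers rose at both (7 and 11 of 13). Beside Hpgd, Cbr1 and Dpep1, 3 of 11 tested colonocyte markers fell at day 6 (14.3% of all genes fell) and 4 at day 4 (4.32%). The colonocyte sum ran from 140000 to 153700 at day 0, 89020 to 141900 at day 4 and 106600 to 144400 at day 6. Of 10 pan-epithelial markers, 4 fell at day 6 (14.3% of all genes). On day 4 mice 3 and 4, colonocyte sums were 106150 and 89016, below every day 6 array, while Hpgd signals were 6288 and 5425, above every day 6 array. Within day 6, mouse 21 had the lowest colonocyte sum (106610) and the lowest Hpgd (3498) and mouse 1 the highest of both (144370 and 5277), and within day 4 mouse 4 had the lowest of both. The part of colonocyte content in the Hpgd difference was not tested. Beside Ltc4s, 2 of 5 tested mast cell markers (Hdc and Gata2) were called as risen at day 6 and 1 (Kit) as fallen. The shares of all genes were 18.1% and 14.3%. Hdc passed the filter only through its day 6 arrays. The mast cell sum ran from 2185 to 2496 at day 0 and from 1824 to 2598 at day 6. The other 8 mast cell markers, the proteases Mcpt1, Mcpt2, Mcpt4, Tpsab1 and Tpsb2 among them, did not pass the filter on dim probe sets. None of the eosinophil markers with a probe set passed the filter. Of the tuft cell markers, known to express several of these genes, 2 of 6 tested fell at day 6 (14.3% of all genes). Their sums were 1201 to 1372 at day 0 and 882 to 1351 at day 6.

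**Figure D4:**
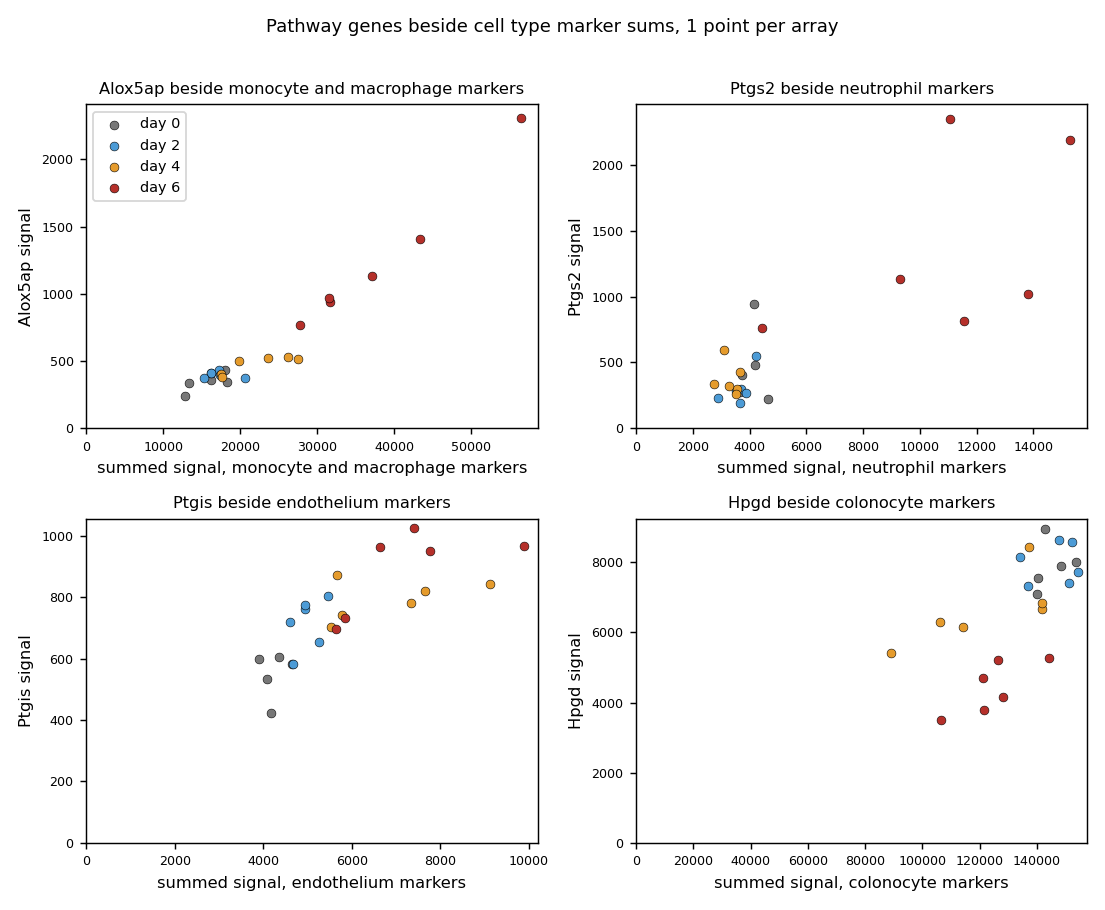
Signal of a pathway gene (vertical axes) against the summed signal of a cell type marker list (horizontal axes, both linear from 0), 1 point per array, coloured by day. Day 6 mouse 21 is at the top right for Alox5ap (2306), and the day 6 arrays lie at 3498 to 5277 for Hpgd at colonocyte sums of 106600 to 144400.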

How the data were processed

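Total RNA of colon from 23 mice, 1 array each, was measured on 1-colour arrays. The deposited values are linear probe set intensities that the authors made with MAS5, per the submitters' processing notes; its version and settings: not given in the sources used here. Depth does not apply to arrays, and their number limits the precision. The 64 control probe sets were left out of the tests. Of the others, 34945 have 1 gene symbol, 932 several and 9160 none, and only the first were named. Probe sets were kept if at least 5 arrays lay above their own array's median (24627). Values were log2(intensity + 16). limma 3.58.1 in R 4.3.3 (lmFit, eBayes with trend, all 4 days in 1 fit) was tested on simulated data, and p-values were adjusted by Benjamini-Hochberg over 12463 genes in each of 5 comparisons. Groups come from the titles. The labels do not say that the arrays are from separate extractions, so p-values measure the spread between arrays. Genes, roles and marker lists were chosen with earlier results of these data known. Named by rule were the 10 genes and, per role, at most 4 pathway genes that passed against day 0. Of the pathway genes, Pla2g10, Pla2g3, Faah and Cysltr1 were named outside this rule. Promoters are RefSeq's: 8 of the 10 genes matched. Other normalizations, filters, covariates, a replicate block and leaving out each array were tried.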

Additional observations from a re-analysis of the deposited data

Results flagged for a closer look

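In 1 of 36 sets of day and gene, an array lay further from the others than Dixon's 95% critical value allows. It was Alox5 at day 6, where mouse 1 had a signal of 105 and the other 5 arrays 183 to 210, a gap of 0.792 of the whole range on the log2(signal + 16) scale against a critical value of 0.625. Chance flags about 1 in 20 such groups. The same array carried pancreatic genes, with a summed signal of 29600, and had the highest Ptgs2 signal of day 6, at 2357; the part of either in the low Alox5 signal was not tested.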

How the results depend on the processing

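Over the 10 changes called in the 9 genes and 38 alternatives for each, 375 values kept their direction and passed, 5 no longer passed and 0 changed sign. With the hybridization controls as a covariate, Ptgis (0.52) and Ptger4 (-0.37) at day 4 and Ptger4 at day 6 (-0.48) no longer passed; with the beta-actin ratio Ptgis at day 4 (0.14) did not. The causes were not tested.

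Mouse numbers recur between days but did not, as a set, pair the arrays. Of 17 pairs with the same number, 3 had a correlation of their deviations over 0.1 (range -0.155 to 0.703), and 3 of 17 arrays correlated best with their own number. Of 181 pairs with other numbers, 36 were over 0.1 (range -0.498 to 0.382), so the highest pair with the same number lay above all of these. With the mouse number as a replicate block, Ptgis at day 4 had a log2 difference of 0.43 (adjusted p = 0.0605) and 1 of the 9 genes passed at day 4. The block left 0 genes of all at day 2 against day 0 (limma), 2449 at day 6 against day 0 and 87 at day 4 against day 2. The other called changes passed under it.

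Of the 9 genes, at day 2 against day 0 (0 passed), 1 passed with the mean of probe sets, array weights or the beta-actin ratio; at day 4 against day 0 (2), 4 passed with array weights, 0 with the hybridization controls and 1 with the beta-actin ratio; at day 4 against day 2 (0), 1 passed with array weights, with only the 2 days fitted or without the 4 arrays. Leaving out 1 array at a time gave 0 to 1, 2 to 3, 5 to 6, 0 to 1 and 3 to 5 for day 2, day 4 and day 6 against day 0, day 4 against 2 and day 6 against 4.

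Over all genes, testing each probe set gave 30, 4616, 7266, 3214 and 4492 calls in these 5 comparisons, in place of 10, 2043, 4044, 1686 and 2845. Hybridization controls as a covariate left 4, 168, 1065 and 53 in the first 4, and the beta-actin ratio 31, 80, 29 and 1520 in day 2 and day 4 against day 0, day 4 against 2 and day 6 against 4. At day 2 against day 0 there were 4 calls with no trend, 135 with array weights, 60 with only the 2 days and 3 without the 4 arrays, and 4 to 32 with 1 array left out. At day 4 against day 2 there were 1030 with median centring and 714 to 1854 with 1 array left out, the lowest without day 4 mouse 4. Median centring changed the split of higher and lower calls from 2261 and 1783 to 1556 and 2380 at day 6 against day 0, and from 1133 and 1712 to 763 and 2231 at day 6 against day 4; the calls of the 9 genes did not change with it. Averaging probe sets changed the day 4 split from 1504 and 539 to 1202 and 952.

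For the 46 other pathway genes, settings added after the data were seen gave 0 calls at day 4 and 4 at day 6 against day 0 with the hybridization controls (limma), 1 at day 4 with the beta-actin ratio and 10 at day 4 without the 4 arrays, in place of 6 and 21.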
